A study of Mus musculus with 3 samples.

Results

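Malat1 and Neat1 are long noncoding RNAs (lncRNAs) that stay in the nucleus, and their reads were followed through apoptotic bodies (ABs) of 3 stages of the osteoclast lineage. The members were the transcript rows of the lncRNA and mRNA tables whose locus overlapped either gene in GENCODE M21, or that were annotated to it. They numbered 25, of 23718 rows in the lncRNA table and 56651 in the mRNA table. Malat1 had 14 rows, 13 of them in the lncRNA table, and Neat1 had 11 rows, 8 of them in the lncRNA table. Of these, 6 Malat1 rows and 4 Neat1 rows held at least 20 reads over the 3 libraries.

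Apoptotic bodies are membrane vesicles shed by dying cells. The study sequenced RNA of ABs from bone marrow macrophages (BMM-ABs), from preosteoclasts (pOC-ABs) and from mature osteoclasts (mOC-ABs), with 1 library each, to ask how AB cargo differs along osteoclast formation. All cells came from bone marrow of C57BL/6 mice, labelled as 11 weeks old, and were grown in 50 ng/mL M-CSF for 72 h. Preosteoclasts then had 30 ng/mL M-CSF and 100 ng/mL RANKL for 24 h, and mature osteoclasts the same for at least 72 h. Per the labels all 3 cultures received 500 μM alendronate for 12 h to induce ABs, whereas the methods name staurosporine, more M-CSF and a longer RANKL culture for mOCs. The sample titles name the cells, but the methods describe RNA from their ABs, and that reading is used here. Nothing states how many mice or cultures each library holds. With 1 library in a group there was no replicate check and no test, so the intervals below cover counting error of reads only. A library is a bulk sample, in which fewer cells of a type and less RNA per cell cannot be told apart.

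Malat1 is a single-exon RNA that gathers at nuclear speckles, the domains where splicing factors concentrate. Neat1 is the scaffold of paraspeckles, nuclear bodies that assemble on its long isoform together with RNA-binding proteins such as SFPQ and NONO, whereas its short isoform ends near the start of the same gene and carries a poly(A) tail. Neither Malat1 nor the long Neat1 isoform ends in an ordinary poly(A) tail. RNase P, the enzyme that trims tRNA precursors, cuts both RNAs at a tRNA-like fold, and the new 3′ end is protected by a triple helix of 2 U-rich tracts and an A-rich tract. The methods describe RNA purified on poly-T beads, and the part of that step in the levels below was not tested.

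Both genes lie on the minus strand of chromosome 19 in GRCm38. Malat1 (ENSMUSG00000092341.3) spans chr19:5795690-5802672, which is 6983 bases, and Neat1 (ENSMUSG00000092274.3) spans chr19:5824708-5845478, which is 20771 bases. The sequences around their processed ends are shown because the main rows of both genes end at or near them. They come from the GENCODE M21 transcripts, and capitals mark the runs of at least 10 bases that the 2 ends share. The Malat1 window is chr19:5795982-5796101, minus strand, within Malat1-201, and the Neat1 window is chr19:5824708-5824827, minus strand, the last 120 bases of Neat1-201.

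Malat1 tract: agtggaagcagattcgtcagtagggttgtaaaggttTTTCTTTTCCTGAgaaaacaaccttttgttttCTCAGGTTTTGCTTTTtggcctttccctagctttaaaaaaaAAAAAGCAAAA
Neat1 tract: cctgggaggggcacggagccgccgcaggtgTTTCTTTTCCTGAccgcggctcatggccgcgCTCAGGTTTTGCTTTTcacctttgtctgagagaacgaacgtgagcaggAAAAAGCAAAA

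The shared runs were 13, 16 and 11 bases long and came in the same order in both genes. Of 30192 M21 lncRNA transcripts, the first run stood in the last 120 bases of 1 transcript, the second in 1 and the third in 11. The Malat1 annotation runs past this point, whereas Neat1-201 stops at it, and a small RNA, Gm27702, is annotated right after Neat1-201. The bases that follow are shown next, at chr19:5795922-5795981 for Malat1 and chr19:5824652-5824707 for Gm27702, both minus strand, with their longest shared run of 9 bases in capitals.

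Malat1 after the tract: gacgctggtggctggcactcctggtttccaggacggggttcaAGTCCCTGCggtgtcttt
Gm27702: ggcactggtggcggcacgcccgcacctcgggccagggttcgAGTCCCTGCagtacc

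The levels of the loci moved apart along the lineage. Summed over its rows, Malat1 had 1602, 3042 and 1863 reads and Neat1 1830, 1695 and 5484, where 3 values in a row run from BMM-ABs through pOC-ABs to mOC-ABs. Malat1 was therefore highest in pOC-ABs and Neat1 in mOC-ABs. Total reads of the mRNA and lncRNA tables together were 12734764, 11865332 and 11556957, and levels are given as reads per 1000000 of these reads (RPM).

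Malat1 stood at 126 RPM in BMM-ABs (95% exact Poisson interval 120 to 132), reached 256 RPM in pOC-ABs (247 to 266) and was at 161 RPM in mOC-ABs (154 to 169). The log2 ratio of pOC-ABs to BMM-ABs was 1.03 (exact interval 0.94 to 1.12), which is 2.04-fold and lies on the 2-fold limit used here as a call. In mOC-ABs Malat1 was 1.28-fold above BMM-ABs (log2 0.36, 0.26 to 0.46) and 1.59-fold below pOC-ABs (log2 -0.67, -0.75 to -0.59). The 3 intervals of the level did not overlap.

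Neat1 stood at 144 RPM in BMM-ABs (137 to 150.4), at 143 RPM in pOC-ABs (136 to 149.8) and reached 475 RPM in mOC-ABs (462 to 487). The first 2 levels were within counting error of each other (log2 -0.0085, -0.10 to 0.088). Neat1 in mOC-ABs was 3.30-fold above BMM-ABs (log2 1.72, 1.65 to 1.80) and 3.32-fold above pOC-ABs (log2 1.73, 1.65 to 1.81).

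**Figure D1:**
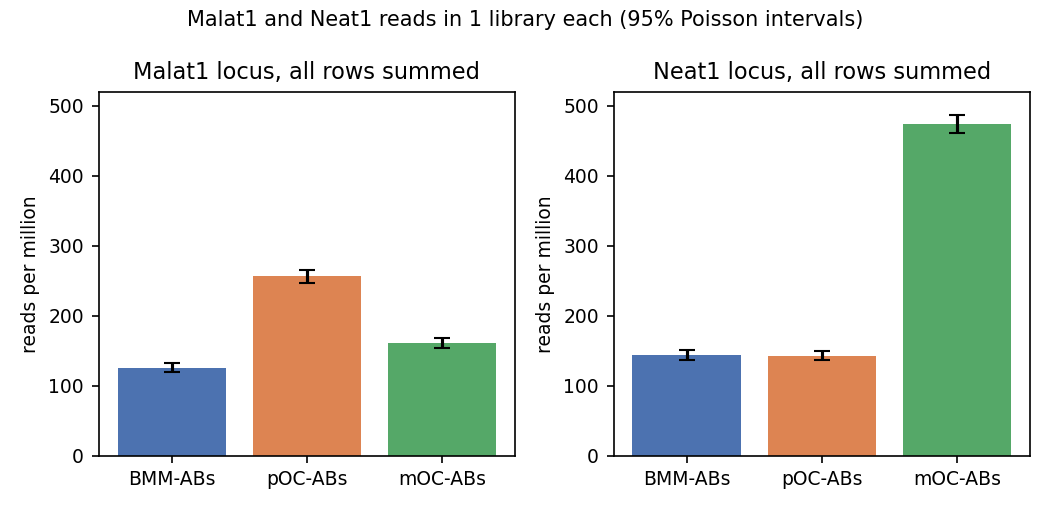
RPM (y axis) of all Malat1 rows and all Neat1 rows in the 3 libraries (x axis), 1 library per bar, with 95% exact Poisson intervals. Malat1 is highest in pOC-ABs at 256 and Neat1 is highest in mOC-ABs at 475.

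The highest level of each locus was set against other genes. Among genes with at least 1000 reads over the 3 libraries, 1.15% were more than 2-fold higher in pOC-ABs than in BMM-ABs, 1.82% in mOC-ABs than in BMM-ABs and 1.84% in mOC-ABs than in pOC-ABs. Of 5369 such genes other than Malat1 and Neat1, 59 had a larger ratio than Malat1 in pOC-ABs over BMM-ABs. For Neat1, 32 genes had a larger ratio in mOC-ABs over BMM-ABs and 28 in mOC-ABs over pOC-ABs. The loci were taken over all rows, whereas gene values leave out rows of the NONCODE catalogue, so the measures are unlike. With Ensembl rows alone Malat1 was at log2 0.87 in pOC-ABs over BMM-ABs, below the 2-fold call. Neat1 was then at 1.74 in mOC-ABs over BMM-ABs and 1.77 in mOC-ABs over pOC-ABs. In the other comparisons with BMM-ABs the loci did not stand out, with 625 genes (11.6%) above Malat1 in mOC-ABs and 1567 (29.2%) above Neat1 in pOC-ABs. The median gene with at least 20 reads was itself below 0 in the comparisons with BMM-ABs, at log2 -0.22 for pOC-ABs and -0.18 for mOC-ABs, and was 0.038 for mOC-ABs over pOC-ABs. Relative to that median gene, the log2 ratios of Malat1 were 1.25, 0.54 and -0.71 in pOC-ABs over BMM-ABs, mOC-ABs over BMM-ABs and mOC-ABs over pOC-ABs. Those of Neat1 were 0.22, 1.90 and 1.69.

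**Figure D2:**
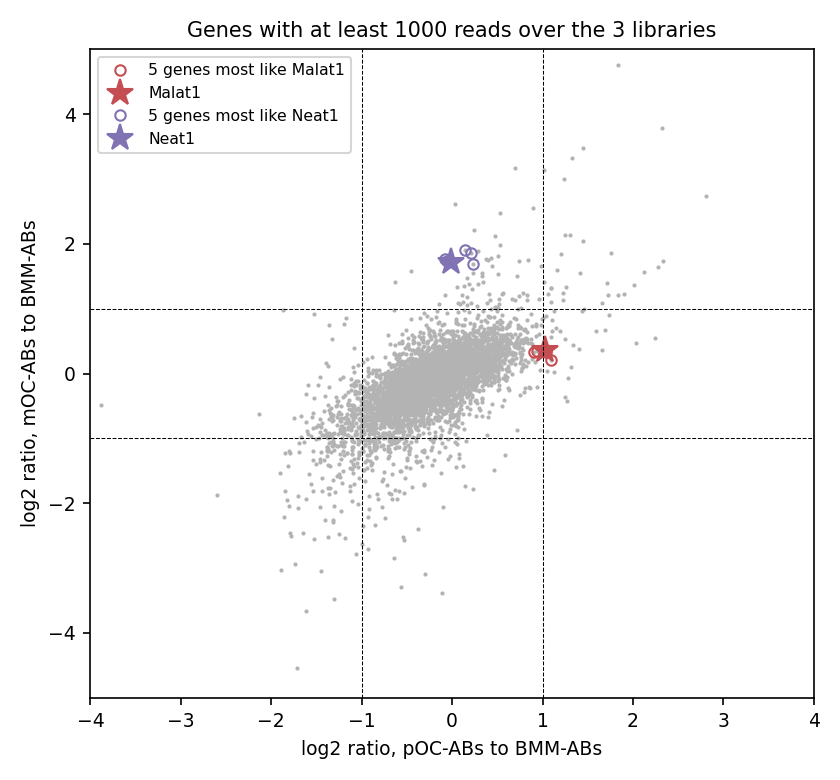
Log2 ratio of pOC-ABs to BMM-ABs (x axis) against that of mOC-ABs to BMM-ABs (y axis) for 5359 genes with at least 1000 reads (grey points, 10 more lie outside the axes). Stars are the Malat1 and Neat1 loci over all rows, whereas gene values leave out NONCODE rows. Circles are the 5 genes nearest to each, and dashed lines a log2 ratio of 1 in either direction. Both axes share BMM-ABs as reference, so the slope of the cloud is in part built in.

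Within a library, where scaling has no part, the order of the 2 loci in summed reads depended on the rows used. Over all rows it differed between libraries. Malat1 had 0.875 reads for each Neat1 read in BMM-ABs (95% exact binomial interval 0.818 to 0.937), as against 1.79 in pOC-ABs (1.69 to 1.91) and only 0.340 in mOC-ABs (0.322 to 0.358). The ratio was 2.05-fold higher in pOC-ABs than in BMM-ABs and 5.28-fold lower in mOC-ABs than in pOC-ABs. With Ensembl rows alone, or in FPKM, Malat1 was below Neat1 in all 3 libraries (log2 -1.10, -0.20 and -2.19, or -1.97, -0.74 and -0.55), and with the lncRNA table alone it was above in BMM-ABs too (log2 0.14). Per kilobase of gene, over all rows, Malat1 was at 18.0, 36.7 and 23.1 RPM per kb, and Neat1 at 6.92, 6.88 and 22.8. Over all rows Malat1 was thus 2.60 times as dense as Neat1 in BMM-ABs and 5.34 times in pOC-ABs, but had 1.01 times its density in mOC-ABs. The density depends on the rows used as the ratio of reads does, and was not computed for Ensembl rows alone. FPKM, also scaled by length, put Malat1 below Neat1 in all 3 libraries.

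Most Malat1 reads sat on 4 rows. Malat1-203 (ENSMUST00000173499), a spliced transcript of 485 bases at the 5′ end of the gene (chr19:5801916-5802671), had 488, 1301 and 758 reads. It was higher in both osteoclast-lineage libraries, by log2 1.52 (1.37 to 1.67) in pOC-ABs and 0.78 (0.61 to 0.94) in mOC-ABs, and ranked 118, 43 and 76 by reads in the lncRNA table. Its exons flank an intron of 271 bases. The 20 bases on each side of the annotated splice sites are shown because this junction is what sets the row apart from the unspliced RNA. The donor lies at chr19:5802218-5802257 and the acceptor at chr19:5801947-5801986, both minus strand, and capitals mark the first and the last 2 intron bases.

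Malat1-203 donor: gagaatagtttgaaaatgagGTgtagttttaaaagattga
Malat1-203 acceptor: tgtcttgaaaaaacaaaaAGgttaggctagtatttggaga

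Whether the reads of Malat1-203 crossed this junction could not be read from a table of counts per transcript. An antisense gene, Gm37376, is annotated on the plus strand at chr19:5801941-5802393, inside this stretch, and without a stated use of strand its reads and those of Malat1 cannot be told apart.

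The other 3 rows cover nearly the whole gene, and the row with most of their reads differed between libraries. NONMMUT033610.2 (6457 bases, from the NONCODE catalogue) had 1544 reads in pOC-ABs and 0 in each of the other libraries. Against a floor of 3 reads in a library, that is at least 552-fold higher in pOC-ABs than in BMM-ABs and at least 501-fold higher than in mOC-ABs. NONMMUT033608.2 (6173 bases) went the other way, with 736, 61 and 661 reads, and was log2 -3.49 in pOC-ABs against BMM-ABs. Malat1-201 (ENSMUST00000172812), the full gene of 6983 bases, had 328, 31 and 418 reads, log2 -3.30 in the same comparison.

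These 3 rows share most of their bases, and their sum moved far less than any of them. It was 1064, 1636 and 1079 reads, a 1.65-fold difference between pOC-ABs and BMM-ABs (log2 0.72, 0.61 to 0.84). In BMM-ABs and mOC-ABs the sums were close, at log2 0.16 (0.037 to 0.28). The 2-fold call of the Malat1 locus depended on the rows summed. It was lost with the Ensembl rows alone (log2 0.87). Without NONMMUT033610.2, which held 1544 of the 1636 reads of these 3 rows in pOC-ABs, the log2 ratio was 0.0052. That row had 0 reads in BMM-ABs and mOC-ABs, so leaving it out could only lower the ratio. The value of 0.0052 is therefore no measure of the locus. The NONCODE rows NONMMUT033610.2 and NONMMUT033608.2 stop 92 and 66 bases short of the end of the A-rich tract at position 5795982. Malat1-201 runs 292 bases past it, and its last 60 bases hold the poly(A) signal AATAAA, as do 24.0% of M21 lncRNA transcripts. Those bases, chr19:5795690-5795749 minus strand, are shown with the signal and the adjoining run of A in capitals.

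Malat1-201 last 60 bases: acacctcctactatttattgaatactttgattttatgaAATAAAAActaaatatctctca

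**Figure D3:**
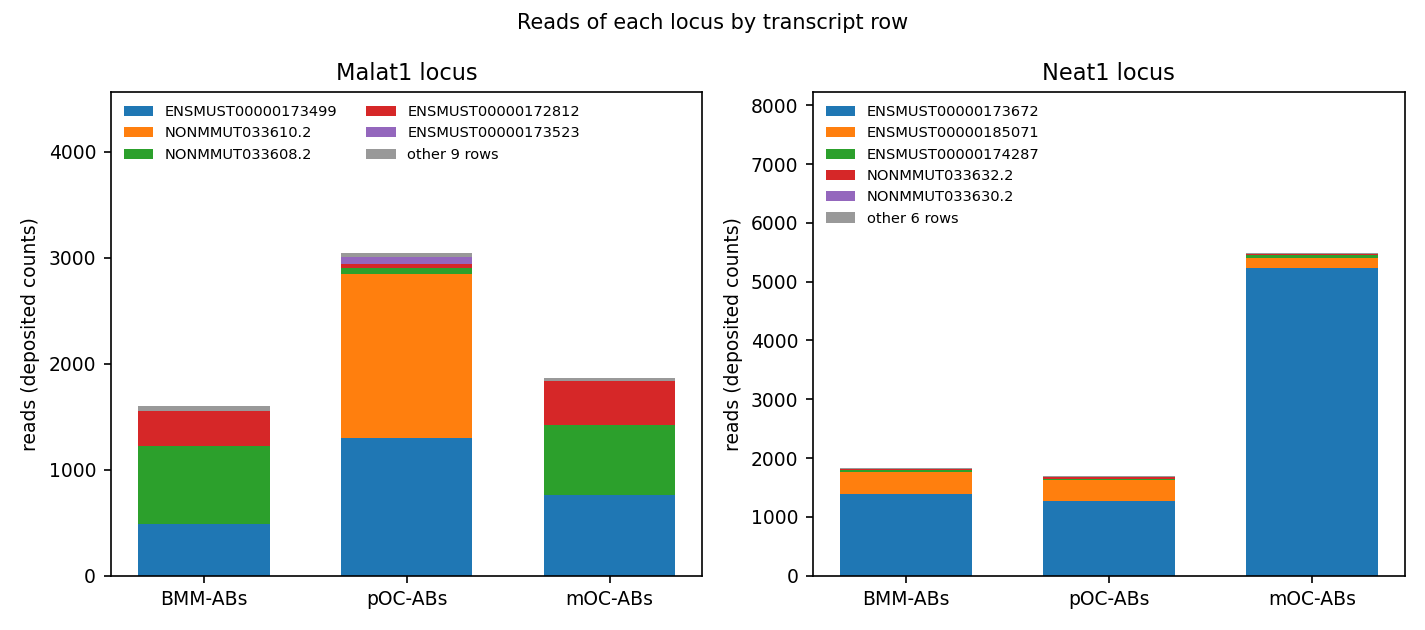
Deposited read counts (y axis) of the Malat1 and Neat1 loci in the 3 libraries (x axis), stacked by transcript row, with the 5 rows of most reads in colour and the others in grey. NONMMUT033610.2 holds 1544 reads in pOC-ABs and 0 in the other libraries, where NONMMUT033608.2 and ENSMUST00000172812 hold more reads than in pOC-ABs.

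The remaining Malat1 rows were small. ENSMUST00000173523, 656 bases at the 5′ end, had 4, 74 and 3 reads, highest in pOC-ABs. Malat1-204 and Malat1-202, spliced transcripts at the 3′ end, had 16, 21 and 9 reads and 5, 5 and 5 reads. A small RNA within the gene, Gm27694, had 1 read in each library, and the other 6 rows had at most 10 reads in any library.

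The share of Malat1 reads counted on rows at the 5′ end differed between libraries. The 2 rows wholly within 1 kb of the 5′ end took 30.7% of the locus's reads in BMM-ABs (exact binomial 28.5 to 33.0%), against 45.2% in pOC-ABs (43.4 to 47.0%) and 40.8% for mOC-ABs (38.6 to 43.1%). Their log2 ratio of pOC-ABs to BMM-ABs was 1.58 (1.44 to 1.74), against 0.70 (0.59 to 0.81), or 1.62-fold, for the 8 rows that start there and reach beyond 1 kb. In mOC-ABs the same rows were 1.70-fold above BMM-ABs and the spanning rows 1.10-fold. The 4 rows beyond the first 1 kb held 26, 27 and 17 reads. The 2-fold call of Malat1 in pOC-ABs thus joined a larger ratio of the 5′-end rows with a smaller one of the spanning rows. The spanning rows cover the first 1 kb too, and how its reads were divided between rows is not given. Counts per row therefore do not show where along the gene the reads lay.

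**Figure D4:**
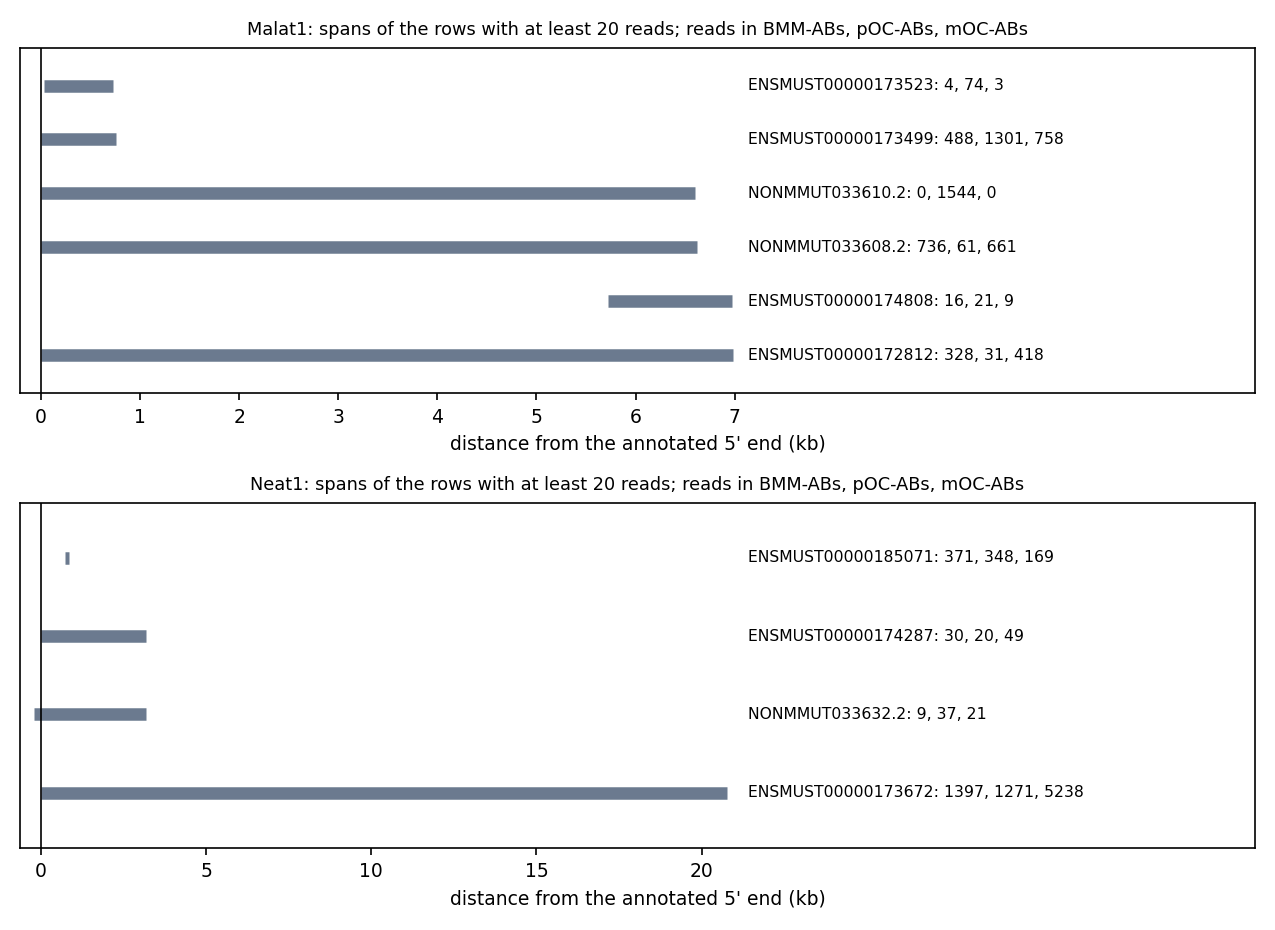
Spans of the Malat1 and Neat1 rows with at least 20 reads, by distance from the annotated 5′ end in kb (x axis), with the reads of each library beside it, BMM-ABs first and mOC-ABs last. Introns are not drawn, and only rows near the 5′ end or over nearly the whole gene hold more than 25 reads in a library.

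At Neat1 1 row held nearly all of the difference. Neat1-201 (ENSMUST00000173672), the long isoform of 20771 bases, had 1397, 1271 and 5238 reads. It was 4.13-fold higher in mOC-ABs than in BMM-ABs (log2 2.05, 1.96 to 2.13) and 4.23-fold higher than in pOC-ABs (log2 2.08, 1.99 to 2.17). Its rank by reads in the lncRNA table was 44, 45 and 17.

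Neat1-202 (ENSMUST00000174287), the short isoform of 3004 bases, had 30, 20 and 49 reads. It was 2.52-fold higher in mOC-ABs than in pOC-ABs (log2 1.33, 0.55 to 2.16) and 1.80-fold higher than in BMM-ABs (log2 0.85, 0.16 to 1.55). Its last 60 bases at chr19:5842307-5842366, minus strand, carry AATAAA (capitals), which the last 60 bases of Neat1-201 lack.

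Neat1-202 last 60 bases: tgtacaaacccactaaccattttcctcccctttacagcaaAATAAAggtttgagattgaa

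Every base of the short isoform's exons lies within the span of the long one, so reads of this stretch had to be divided between both rows, and the rule used for that is not given in the sources used here. NONMMUT033632.2, a NONCODE row of 3092 bases over the same stretch, had 9, 37 and 21 reads.

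A small RNA annotated inside Neat1 went the other way. Gm27505 (ENSMUST00000185071), 110 bases between 731 and 840 bases from the 5′ end of Neat1, is listed in the mRNA table with 371, 348 and 169 reads. It was level between BMM-ABs and pOC-ABs (log2 0.0097, -0.21 to 0.22) and lower in mOC-ABs, at 0.502 times its level in BMM-ABs (log2 -0.99, -1.27 to -0.73) and 0.499 times that in pOC-ABs. Its sequence, at chr19:5844638-5844747 on the minus strand, is printed because reads of these bases fit several rows alike. The bases lie within Neat1-201 and within exons of Neat1-202 and of Neat1-203, another annotated transcript. Gm27505 held more reads than Neat1-202 in each library. The ratios given for the short isoform therefore depend on where these reads were counted, which was not tested.

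Gm27505: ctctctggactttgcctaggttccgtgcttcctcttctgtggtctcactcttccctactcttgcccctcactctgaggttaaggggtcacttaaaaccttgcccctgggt

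Whether a read could be counted in both tables was not tested. In deposited FPKM, reads divided by row length on a scale that differs between the tables, Gm27505 stood at 371, 428 and 199 and Neat1-201 at 5.28, 5.15 and 21.8. A sum of FPKM over the locus was therefore led by Gm27505 and put Neat1 lower in mOC-ABs, at log2 -0.75 against BMM-ABs and -0.96 against pOC-ABs. The other 2 small RNAs inside Neat1, Gm27533 and Gm28006, had 1 read in each library.

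Rows wholly within 4 kb of the Neat1 5′ end, which hold the short isoform and the small RNAs, summed to 427, 415 and 246 reads. Their share of the locus was 23.3% (21.4 to 25.3%), 24.5% (22.5 to 26.6%) and 4.49% (3.95 to 5.07%). The 3 rows that span into the long isoform summed to 1403, 1280 and 5238 reads. They were 4.11-fold higher in mOC-ABs than in BMM-ABs, and the short rows were 0.635 times as high (log2 -0.66, -0.89 to -0.43). The lower level of the short rows rested on Gm27505. Without it they summed to 56, 67 and 77 reads, and were 1.52-fold higher in mOC-ABs than in BMM-ABs (log2 0.60, 0.084 to 1.12).

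Row by row, large ratios were common in the whole lncRNA table, where 55.5% of rows passed 2-fold in either direction in pOC-ABs against BMM-ABs, 60.6% in mOC-ABs against BMM-ABs and 57.2% in mOC-ABs against pOC-ABs. Of the 13 Malat1 rows in that table, 5 were more than 2-fold higher in pOC-ABs than in BMM-ABs (background 22.4%) and 6 more than 2-fold lower (background 33.1%). In mOC-ABs against BMM-ABs 2 were higher (background 12.4%) and 3 lower (background 48.2%), and in mOC-ABs against pOC-ABs 5 were higher (background 19%) and 4 lower (background 38.2%). Of the 8 Neat1 rows, 2 were higher and 2 lower in pOC-ABs against BMM-ABs, 2 and 4 in mOC-ABs against BMM-ABs, and 2 and 2 in mOC-ABs against pOC-ABs. In either direction, in the same order of comparisons, 11, 5 and 9 of the 13 Malat1 rows passed. The first and last lay above the background and the second below it. Those of Neat1, 4, 6 and 4 of 8, were of the order of the background. With so few rows that overlap each other, the sums over a locus are the values to read.

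The genes of the proteins that Neat1 gathers in paraspeckles stayed within 2-fold. All 20 examined had at least 20 reads, and 0 of them passed 2-fold in any comparison. Of all genes with at least 20 reads, 15.4% passed in pOC-ABs over BMM-ABs, 17% in mOC-ABs over BMM-ABs and 12.4% in mOC-ABs over pOC-ABs. Most of the 20 had at least 1000 reads, where only 1.15%, 1.82% and 1.84% of genes were more than 2-fold higher. A count of 0 higher genes was near that share. The share of such genes that were lower is not given here, so 0 lower genes is not read as a result. The median log2 ratio of the 20 in mOC-ABs over BMM-ABs was -0.0083, against -0.18 for all genes and 1.72 for Neat1. In mOC-ABs over pOC-ABs 17 of 20 were above 0, with a median of 0.20, beside 0.038 for all genes. Sfpq and Nono, which bind Neat1 and build the core of the body, had 2496, 2444 and 2043 reads and 2564, 2328 and 2298 reads. Pspc1, their paralogue, had 340, 226 and 327. Hnrnpk, which governs the choice between the Neat1 isoforms, had 1413, 1469 and 1714, and Nudt21 and Cpsf6, of the complex that directs cleavage at the short isoform's poly(A) site, had 256, 155 and 200 reads and 1588, 1361 and 1726. Tardbp, an RNA-binding protein that also acts on that choice, had 872, 664 and 743.

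Genes for proteins of nuclear speckles or bound to Malat1 stayed within 2-fold as well. Of 21 such genes 0 passed 2-fold in any of the 3 comparisons. Of all genes with at least 20 reads, 15.4%, 17% and 12.4% passed in the same order of comparisons. Most of the 21 had at least 1000 reads, where 1.15%, 1.82% and 1.84% of genes were more than 2-fold higher. A count of 0 higher genes was near that share. For these too the share that were lower is not given, and 0 lower genes is not read as a result. The median log2 ratio of the 21 was -0.13 in pOC-ABs over BMM-ABs, where all genes had a median of -0.22 and Malat1 was at 1.03. Son and Srrm2, the scaffold proteins of speckles, had 4122, 2885 and 3474 reads and 6896, 4767 and 4867. Srsf1, a splicing factor bound by Malat1, had 939, 799 and 940. Hnrnpc, which binds Malat1 at a site opened by methylation, had 1070, 1401 and 1201 reads, and Mettl3, the enzyme of that methylation, 246, 181 and 232.

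Of 13 genes of the machinery that forms the 3′ ends 1 was past 2-fold in pOC-ABs over BMM-ABs, a share near the 4.54% of all genes that were higher. Rpph1, the RNA subunit of RNase P, had 134034, 415180 and 227705 reads, and was 3.32-fold higher in pOC-ABs than in BMM-ABs (log2 1.73). Malat1 and Rpph1 were both highest in pOC-ABs and lowest in BMM-ABs, and no more than that can be said from 3 libraries. The 12 other genes with enough reads, among them the protein subunits of RNase P, Elac2 (the nuclease for tRNA 3′ ends) and Mettl16 (a protein that binds the Malat1 triple helix), stayed within 2-fold. Mettl16 had 443, 362 and 470 reads and Elac2 511, 362 and 440. The median of the 13 genes was -0.00086 in pOC-ABs over BMM-ABs, 0.23 in mOC-ABs over BMM-ABs and 0.31 in mOC-ABs over pOC-ABs.

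Most other nuclear lncRNAs measured were lower in pOC-ABs than in BMM-ABs. Of 12 looked for, 6 had a row by that name and the rest were not analysed here. All 6 had at least 20 reads, and in pOC-ABs against BMM-ABs 5 of them were more than 2-fold lower (10.9% of all genes with at least 20 reads) and 0 were more than 2-fold higher (4.54%). Firre, which organises contacts between chromosomes, had 440, 70 and 157 reads. Gm26917 had 1302, 473 and 560, Pvt1 had 40, 13 and 27, Ftx had 37, 9 and 6, and Airn had 22, 8 and 20. Jpx, an activator of Xist, was level at 38, 36 and 44. In mOC-ABs against BMM-ABs 3 were lower (13.3% of all genes) and 0 higher (3.65%), and in mOC-ABs against pOC-ABs 3 were higher (4.5%) and 0 lower (7.92%). The medians were -1.44, -0.75 and 0.71 in these comparisons, each with few reads behind most genes. These gene values leave out NONCODE rows, which the Malat1 and Neat1 sums include. Whether reads of these genes were counted on such rows was not tested.

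A list of 14 names was drawn up of lncRNAs taken to occur in the cytoplasm, and where each lay in these cells was not measured. Of these, 11 had at least 20 reads. In pOC-ABs against BMM-ABs 2 were more than 2-fold higher (4.54% of all genes) and 1 lower (10.9%). In mOC-ABs 1 was higher than in BMM-ABs (3.65% of all genes), and 2 were lower than in pOC-ABs (7.92%). The medians were -0.063, -0.10 and 0.038 in pOC-ABs over BMM-ABs, mOC-ABs over BMM-ABs and mOC-ABs over pOC-ABs. NONCODE rows were left out here too. Gas5, a host gene of small nucleolar RNAs, had 785, 873 and 873 reads (log2 0.26 and 0.29 against BMM-ABs). Snhg3, another such host, had 410, 1207 and 787, and was more than 2-fold higher in both osteoclast-lineage libraries than in BMM-ABs. Snhg5 was more than 2-fold lower in pOC-ABs than in BMM-ABs, at 64, 18 and 35 reads.

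The genes around Malat1 and Neat1 on chromosome 19 were called about as often as all genes. Of 12 neighbours with at least 20 reads, 0 were more than 2-fold higher in any comparison, beside 4.54% of all genes in pOC-ABs over BMM-ABs, 3.65% in mOC-ABs over BMM-ABs and 4.5% in mOC-ABs over pOC-ABs. In each comparison with BMM-ABs 2 were more than 2-fold lower, beside 10.9% of all genes in pOC-ABs and 13.3% in mOC-ABs. Frmd8, the coding gene next to Neat1, had 758, 545 and 734 reads. The median log2 ratio of the neighbours was -0.42 in pOC-ABs over BMM-ABs, -0.31 in mOC-ABs over BMM-ABs and 0.11 in mOC-ABs over pOC-ABs.

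**Figure D5:**
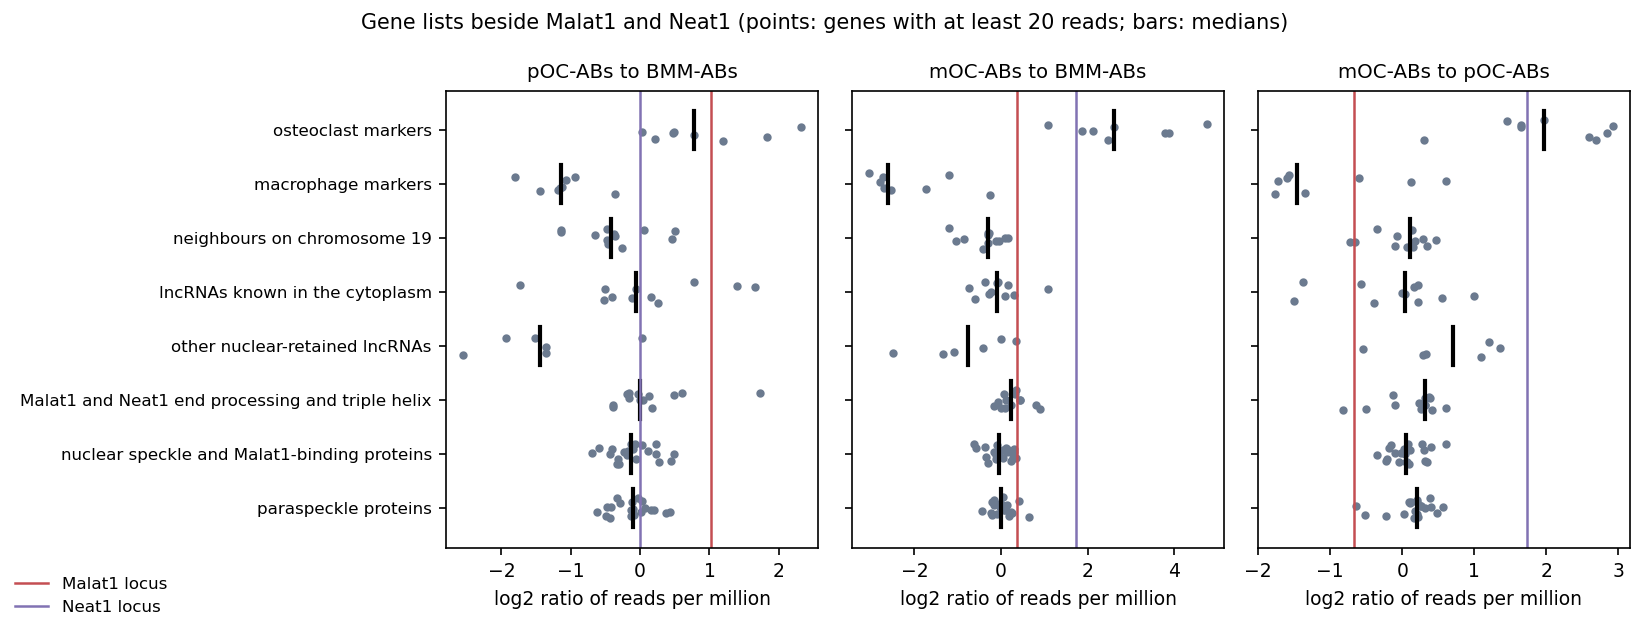
Log2 ratio of RPM (x axis) of the genes of each list (rows) in the 3 comparisons, 1 panel each. Points are genes with at least 20 reads, without NONCODE rows, and black bars are the medians. Coloured lines are the Malat1 and Neat1 loci over all rows, and 2 points without reads in BMM-ABs are not drawn. Genes of paraspeckle and speckle proteins sit within 2-fold. Of all genes with at least 20 reads, 15.4% passed 2-fold in pOC-ABs over BMM-ABs, 17% in mOC-ABs over BMM-ABs and 12.4% in mOC-ABs over pOC-ABs. Malat1 is at 1.03 in pOC-ABs over BMM-ABs and Neat1 at 1.72 in mOC-ABs over BMM-ABs.

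The stage of the libraries was read from markers of each cell type. All 9 osteoclast markers with at least 20 reads were more than 2-fold higher in mOC-ABs than in BMM-ABs (3.65% of all genes), with a median of 2.62, and their summed level was 362, 523 and 1752 RPM. Acp5, the acid phosphatase of osteoclasts, had 88, 292 and 2157 reads, and Ctsk, the protease that digests bone collagen, had 180, 171 and 1001. Ctsk was level between BMM-ABs and pOC-ABs, as Neat1 was, but most other markers were not. All 9 were above 0 in pOC-ABs over BMM-ABs, with a median of 0.78, and 4 were more than 2-fold higher (4.54% of all genes). Oscar had 0, 7 and 49 reads, and with its 0 set to 3 reads the medians were the same. Itgb3 ran against the label with 6, 3 and 0 reads. Of 8 macrophage markers 6 were more than 2-fold lower in pOC-ABs (10.9% of all genes) and 7 in mOC-ABs (13.3%) against BMM-ABs, and their summed level was 4209, 1760 and 1209 RPM. Lyz2 had 28844, 9854 and 3170 reads, and Mertk was near absent in all libraries at 0, 2 and 5. Of 21 markers of other marrow cells 7 had a row, with at most 9 reads in a library. The part of these shifts in the Malat1 and Neat1 differences was not tested.

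The genes whose pair of log2 ratios against BMM-ABs lay nearest to those of each locus were looked for among the 5369 genes with at least 1000 reads. Likeness was the straight-line distance between the 2 log2 ratios, a description over 3 libraries. The loci were taken over all rows, whereas the gene values leave out NONCODE rows. Nearest to Malat1 were Rab11b, a GTPase of recycling endosomes (248, 473 and 289 reads), Gm28967, the translation initiation subunit Eif3j1, Ptma, a nuclear acidic protein (3124, 5437 and 3587 reads), and Fyttd1, an mRNA export adaptor. Their distances ran from 0.0070 to 0.16. Nearest to Neat1 were Banf1, a chromatin protein of the nuclear envelope (360, 323 and 1084 reads), Lsm12, the pyrophosphate transporter Ank, the retinoic acid receptor Rarb, and Nfatc1, the transcription factor that directs osteoclast formation (2566, 2772 and 8463 reads). Their distances ran from 0.046 to 0.26. Banf1 lay closest to Neat1, with log2 ratios of -0.054 against -0.0085 in pOC-ABs and 1.73 against 1.72 in mOC-ABs.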

How the data were processed

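The authors deposited 3 tables of ABs from 3 libraries. The mRNA and lncRNA tables hold read counts and FPKM per transcript, and a circRNA table holds counts of junction reads. Per the labels, FastQC, HISAT2 and StringTie were used on GRCm38, and per the methods RNA was purified on poly-T beads for paired-end sequencing. Versions, the counting tool, its use of strand and the annotation are not given in the sources used here. Columns headed by hours of RANKL were matched to the groups by the labels. The deposited FPKM of the 2 tables are on different scales, so counts were used.

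Rows were matched to the 2 loci by coordinates and to GENCODE M21 genes by transcript identifier. Of 3102 shared Ensembl lncRNA rows, 98.8% had the same bounds. The 229 mRNA rows and 14 Ensembl lncRNA rows that are not in M21 entered no gene value. Reads were summed per locus and divided by the total of both tables. Ratios past 2-fold (above 2 or below 0.5) were calls, an order of size and not a test, since 1 library in a group allows no edgeR-type test. Intervals were exact Poisson for sums and exact (Clopper-Pearson) binomial for shares and ratios, at 95%, for counting error only, since the reads carry no molecular identifiers. A floor of 3 reads was 0.236 RPM in the BMM-AB library, 0.253 in that of pOC-ABs and 0.260 in that of mOC-ABs. Ratios and intervals were tested on simulated data. Gene values sum the mRNA rows and Ensembl lncRNA rows of a gene. Gene lists needed at least 20 reads over the 3 libraries. The genes named were the rows at the loci, the 5 genes nearest to each locus and members of the lists. Members and lists were chosen with earlier results of these data known. Python 3.11.15, pandas 2.3.3 and scipy 1.17.1 were used.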

Additional observations from a re-analysis of the deposited data

Results flagged for a closer look

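The circRNA table, which no comparison above uses, lists back-splice junctions, reads that join the end of a stretch of RNA to its own start. It held 4 junctions at Malat1 and 0 at Neat1, of 1372 in all. The 4 Malat1 junctions had 28 reads in pOC-ABs and 17 in mOC-ABs, against 0 in BMM-ABs. These are 0 of 3413 junction reads in BMM-ABs, which allows a share of up to 0.0879% by the floor of 3 reads or 0.108% by the exact binomial interval, 1.18% of 2380 in pOC-ABs (exact binomial 0.783 to 1.70%) and 0.424% of 4014 in mOC-ABs (0.247 to 0.677%). Both osteoclast-lineage libraries were thus above the limit that 0 reads allow in BMM-ABs, by counting error only. The junction of most reads joined the ends of an 815-base stretch, with 0, 17 and 11 reads. The others, over 461, 243 and 566 bases, had 0, 0 and 6, 0, 7 and 0, and 0, 4 and 0. The table puts 3 of the 4 on the plus strand, opposite to Malat1. Per 1000 linear reads of the locus, junction reads were 9.20 in pOC-ABs and 9.13 in mOC-ABs.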

How the results depend on the processing

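Of 180 values under alternatives, 108 stayed within the interval of the value reported (counts of rows, within 1.5 times). Log2 ratios are given below as pOC-ABs over BMM-ABs, mOC-ABs over BMM-ABs and mOC-ABs over pOC-ABs. Other scalings moved the median of all genes by 0.20 to 0.34, 0.10 to 0.33 and -0.12 to -0.01. For Malat1 they were 1.23, 0.46 and -0.77 with the mRNA total, 1.22 and 0.53 with median-of-ratios size factors, 1.37 and 0.69 with the upper quartile, and 1.28, 0.49 and -0.79 without 7SL, RNase P, RNase MRP and mitochondrial RNA. For Neat1 they were 0.19, 1.82 and 1.63, then 0.19 and 1.89, then 0.33 and 2.05, and last 0.24, 1.86 and 1.61. All directions of called values held under these scalings.

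Which rows were summed mattered more for Malat1. Ensembl rows alone gave 0.87, 0.64 and -0.23, and the deposited FPKM gave 1.44, 0.67 and -0.77. Chosen after seeing the data, the FPKM of the lncRNA table alone gave 1.45, 0.67 and -0.77, rows within 1 kb of the 5′ end 1.58, 0.77 and -0.82, and the rest 0.69, 0.13 and -0.56. Without NONMMUT033610.2, a row of pOC-ABs alone, Malat1 was at 0.0052 in pOC-ABs over BMM-ABs and 0.35 in mOC-ABs over pOC-ABs. Leaving this row out could only lower the pOC-AB sum, so these values are no check of the locus. Summed FPKM turned the Neat1 differences around, to 0.21, -0.75 and -0.96, because the 110-base Gm27505, at 371, 428 and 199 FPKM on the other table's scale, outweighs the long isoform. The lncRNA table alone gave 2.01 and 2.02 for mOC-ABs over BMM-ABs and over pOC-ABs in reads. In FPKM it gave 0.090 for pOC-ABs over BMM-ABs and 1.63 for mOC-ABs over pOC-ABs.

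The log2 ratio of Malat1 to Neat1 reads, reported as -0.19, 0.84 and -1.56 from BMM-ABs through pOC-ABs to mOC-ABs, was -1.10, -0.20 and -2.19 for Ensembl rows, -1.97, -0.74 and -0.55 in FPKM and 0.14 and 1.18 for the lncRNA table in BMM-ABs and pOC-ABs. The change of order between libraries was lost with Ensembl rows and in FPKM, where Malat1 was below Neat1 in each. Rows past 2-fold numbered 11, 5 and 9 at Malat1. Among the 6 rows with at least 20 reads they were 5, 0 and 5, and with a pseudocount of 1 on the FPKM 5, 0 and 4. At Neat1 4, 6 and 4 became 1, 2 and 2 among its 3 rows with at least 20 reads, and 0, 1 and 1 with the pseudocount. The share of all lncRNA rows at these settings is not given here, so these counts are not read as a result about the loci. The Neat1 boundary at 3.5 or 5 kb changed nothing, and without Gm27505, chosen after seeing the data, the short rows took 3.84%, 4.97% and 1.45% of the locus. Of 72 list medians 67 stayed within their interval. The paraspeckle median became 0.088 and 0.16 with size factors against BMM-ABs, and 0.16 (pOC-ABs over BMM-ABs) and 0.081 (mOC-ABs over pOC-ABs) in FPKM. The median of the list of lncRNAs taken to occur in the cytoplasm became -0.71 in FPKM (pOC-ABs over BMM-ABs). No paired analysis was possible because each group had 1 library, and for the same reason no library could be left out.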

Other observations

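The 22035 bases between Malat1 and Neat1 held 3 more lncRNA rows, all from NONCODE, which are no members. Together they had 98 reads for BMM-ABs, 103 for pOC-ABs and 48 for mOC-ABs, so the gap was lowest in the library where Neat1 was highest.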
